A study of Mus musculus with 2 samples.

Results

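Of the 13713 barcodes in the matrices of 2 mouse mammary tumors, 4212 had at least 500 unique molecular identifiers (UMIs), took more than 20% of them from the 13 genes of the mitochondrial genome and were absent from the cell annotation. They were 2294 of the 6175 barcodes of mouse 1 (37.1%) and 1918 of the 7538 barcodes of mouse 2 (25.4%). Against them stood 3829 and 5330 annotated cells, and a further 52 and 290 barcodes were absent from the annotation with a mitochondrial share of at most 20%. No unannotated barcode had fewer than 500 UMIs. The members were chosen by their mitochondrial share, their number of UMIs and their absence from the annotation, so the values of these measures are a description and were not tested.

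Both mice had the genotype Krt8-CreERT/Rosa26-mTmG/MMTV-PyMT, in which the polyoma middle T oncogene drives mammary tumors, tamoxifen activates a Cre recombinase made under the promoter of the luminal keratin Krt8, and the reporter then turns green (GFP+) in those cells and all their descendants. Tamoxifen was given at 150 mg/kg on 6 days spread over weeks 5 and 6 of age, and tumors were taken at 1.5 cm3. Live cells that were GFP+ and negative for the endothelial marker CD31 and the leukocyte marker CD45 were sorted and loaded as 1 droplet library per mouse (10x Chromium, 3' chemistry). There was 1 condition and no untreated group, the label marks only cells that had made Krt8 or descend from them, and the mouse was the replicate.

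Mitochondria keep a small circular genome whose messenger RNAs encode subunits of the respiratory chain and are made and held inside the organelle. Every other messenger RNA is transcribed in the nucleus, and most of it is translated in the cytoplasm. In droplet libraries, a barcode rich in mitochondrial transcripts is commonly taken as a damaged cell or as debris and is removed. Some RNAs, such as the long noncoding RNA Malat1 of nuclear speckles, stay in the nucleus, and ribosomal RNA (rRNA) is made in the nucleolus. The gene groups below were chosen by where their RNA or their protein is found. Where the RNA itself lay was not measured.

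The share of mitochondrial UMIs among the members was most often close to the cut at 20%, which the rule set, or over 80%. The median share was 86.8% in mouse 1 and 83.7% in mouse 2, against 6.20% and 5.42% in the annotated cells, and it ranged from 20.01% to 99.3% and from 20.1% to 98.5%. In mouse 1, 647 barcodes (28.2% of the members) lay at or under 50%, 354 (15.4%) between 50% and 80%, and 1293 (56.4%) over 80%. The corresponding numbers in mouse 2 were 633 (33.0%), 270 (14.1%) and 1015 (52.9%). In steps of 5 percentage points, mouse 1 had 172 members from 20% to 25%, 41 from 65% to 70% and 624 from 95% to 100%, and mouse 2 had 189 from 20% to 25%, 30 from 60% to 65% and 466 from 90% to 95%. Annotated cells numbered 346 and 466 from 10% to 15% and 186 and 240 from 15% to 20%. The count thus fell on across the threshold, and by this count alone the members next to it were not set apart from the annotated cells. Both tumors also held a larger group in which nearly all UMIs were mitochondrial, with the fewest barcodes between it and the threshold.

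**Figure D1:**
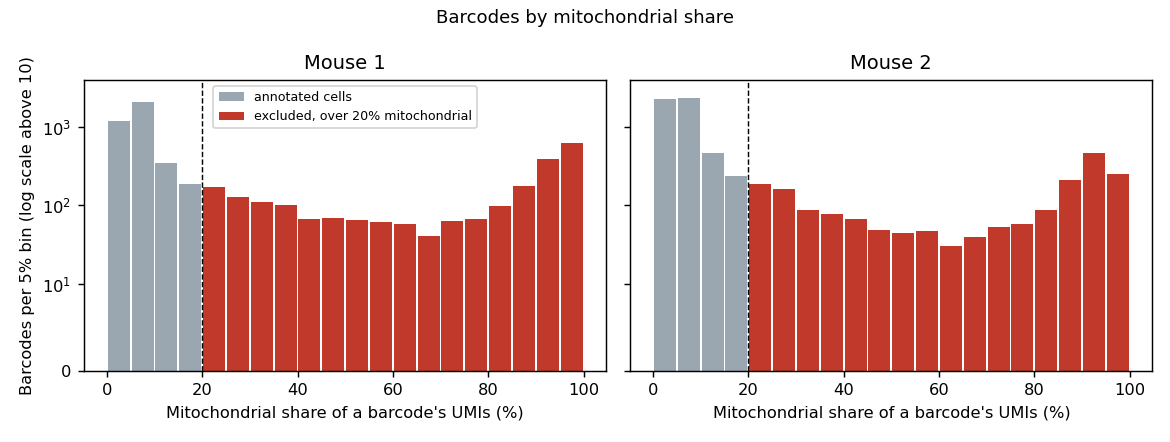
Number of barcodes (y axis) by the mitochondrial share of their UMIs in steps of 5 percentage points (x axis), for the annotated cells and for the unannotated barcodes over 20%, 1 panel per mouse. The unannotated barcodes have a peak above 90%, where mouse 1 reaches 624 and mouse 2 466 barcodes in a step. Next to the threshold, their 172 and 189 barcodes from 20% to 25% follow 186 and 240 annotated cells from 15% to 20%.

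At the threshold itself, the highest share of any annotated cell was 19.4% in mouse 1 and 19.3% in mouse 2, and 17 and 30 unannotated barcodes lay between that value and 20%. Just inside, 42 and 38 members had a share of 20% to 21%, with a median of 4214 and 2227.5 UMIs. Just outside, 30 and 46 barcodes had a share of 19% to 20%, with a median of 1581 and 1843.5 UMIs. At the limit on UMIs, 91 and 110 members had 550 UMIs or fewer.

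The members were shallow, and what they lacked was nonmitochondrial RNA. They had a median of 1274.5 UMIs per barcode in mouse 1 and 1065 in mouse 2, against 15014 and 9470 in the annotated cells. Without the mitochondrial genes, the medians were 145 and 154.5 UMIs, against 14081 and 8908.5. The median of mitochondrial UMIs alone was 930 and 750, against 894 and 521.5, so a typical member held at least as many mitochondrial UMIs as a typical annotated cell and far fewer of all others. The members together held 39.7% and 32.6% of all mitochondrial UMIs of their libraries and 3.06% and 2.53% of the nonmitochondrial ones.

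The same pattern ran through the range of the share. From members at 20% to 30% to those at 95% to 100%, the median of nonmitochondrial UMIs went from 1925 to 34 in mouse 1 and from 1751.5 to 41 in mouse 2. The median of mitochondrial UMIs went from 663 to 1197.5 and from 584 to 1089.5. The rule partly fixes this relation, since a barcode with few nonmitochondrial UMIs needs at least 500 UMIs in all to be a member.

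**Figure D2:**
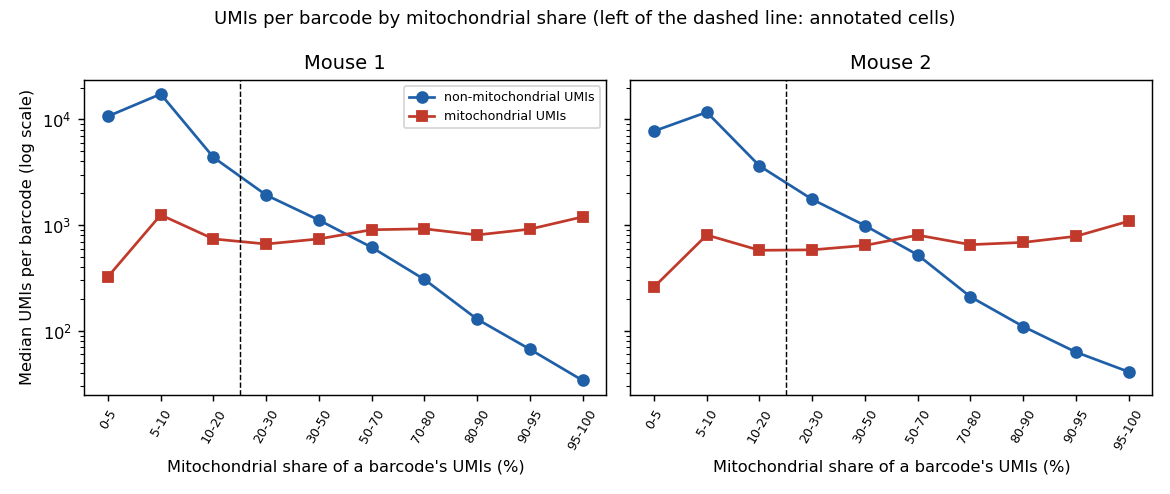
Median UMIs per barcode (y axis, log scale) by mitochondrial share (x axis, percent), with nonmitochondrial UMIs as circles and mitochondrial UMIs as squares, 1 panel per mouse, and the annotated cells left of the dashed line. Among the members the median of nonmitochondrial UMIs falls from 1925 to 34 in mouse 1 and from 1751.5 to 41 in mouse 2, while that of mitochondrial UMIs lies between 663 and 1197.5 and between 584 and 1089.5.

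The study's methods set 2 further filters, on UMIs and on detected genes, beside the one on the mitochondrial share. With the mitochondrial genes included, 1405 members of mouse 1 (61.2%) and 1121 of mouse 2 (58.4%) had 200 detected genes or fewer, the stated limit. Of the members over 80%, 1261 of 1293 and 1002 of 1015 did, and of those at or under 50%, 20 of 647 and 8 of 633 did. The limits on UMIs and genes alone would have left 889 and 797 members. The members below therefore mix barcodes at or under the limit on genes with barcodes that passed it.

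The 13 mitochondrial messenger RNAs were not present in the same proportions as in the annotated cells. The share of mt-Co1, a core subunit of cytochrome c oxidase, among mitochondrial UMIs was 13.03% in the members of mouse 1 and 13.3% in those of mouse 2, against 14.8% and 15.9% in the annotated cells. It went from 14.8% and 15.6% in members at 20% to 30% to 11.8% and 11.3% in those at 95% to 100%. The share of mt-Atp6, a subunit of the ATP synthase, was 22.7% and 21.3% in the members, against 20.6% and 19.3%. That of mt-Cytb, the core subunit of complex III, was 10.5% and 9.66%, against 11.8% and 10.2%. These genes were part of the rule, so the proportions were not tested, and the direction was the same in both mice for each of these 3 genes.

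The label of the sort was checked against marker genes. The luminal keratins and adhesion genes were present in the members: Krt8 had 4845 and 4459 UMIs, Krt18 5574 in mouse 1, and the list of 9 pan-luminal genes summed to 13168 and 13297 per 1000000 nonmitochondrial UMIs, against 21011 and 24408 in the annotated cells. Basal and myoepithelial genes summed to 211 and 100.4 per 1000000, against 460.4 and 259. Markers of other cell types differed in their counts. The members had 1 and 2 UMIs of the fibroblast collagen Col1a2, 0 and 0 of the endothelial cadherin Cdh5, and 2 and 4 of the leukocyte gene Ptprc (the CD45 gene). Other genes of the leukocyte and red cell lists had more, with 35 and 108 UMIs of the antigen presentation gene Cd74, 34 and 361 of the neutrophil gene S100a8, and 0 and 566 of the hemoglobin gene Hbb-bs. Of the Cd74 UMIs, 6 of 35 and 50 of 108 came from 1 barcode. S100a8 stood at 19.6 and 253 per 1000000 nonmitochondrial UMIs in the members, against 33.3 and 164 in the annotated cells. It was thus not particular to the members. Some genes of the fibroblast and pericyte lists also had more UMIs than Col1a2, Cdh5 or Ptprc. Members at or below their mouse's median share alone held 54 and 5 UMIs of Postn and 8 and 39 of Dcn, both of the fibroblast list. They also held 39 and 65 UMIs of Notch3, of the pericyte list. The study reports Postn as raised in a cluster of the sorted tumor cells, so its UMIs need not come from fibroblasts. UMIs of at least 3 genes of a fibroblast, pericyte, endothelial, immune, erythroid or adipocyte list occurred in 12 of 2294 and 15 of 1918 members, in 88 of 3829 and 84 of 5330 annotated cells, and in 28 of 52 and 254 of 290 unannotated barcodes at or under 20%. Reaching 3 genes depends on depth, so these counts cannot be compared between the groups. The median of nonmitochondrial UMIs was 145 and 154.5 in the members and 14081 and 8908.5 in the annotated cells. It was 2210.5 and 2708.5 in the unannotated barcodes at or under 20%. Free RNA in the droplets gives UMIs of other cell types' genes too, and no count of cells was read from these UMIs.

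To ask how the nonmitochondrial RNA of these barcodes differed from that of cells that passed the filters, UMIs were summed over the members and over the annotated cells of each mouse, mitochondrial genes removed. The sums held 1734411 and 1424142 UMIs in the members and 54791286 and 53546466 in the annotated cells. Levels below are per 1000000 nonmitochondrial UMIs of a sum (CPM), and fold changes come from edgeR's quasi-likelihood test with the mouse as a block, after normalization by trimmed means (TMM), with Benjamini-Hochberg adjusted p-values. Of 14733 genes tested, 5889 (40.0%) passed an adjusted p of 0.05, 2521 higher in the members (17.1%) and 3368 lower (22.9%). With 4 in 10 genes past the threshold, the count of a list is read against these shares.

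Scaling bears on the direction of small changes. With the sums scaled to their totals in place of TMM, the median of all genes shifted by 0.35 on the log2 scale, and 68.8% of the calls were higher, against 42.8% with TMM. Fits that left out 1 sum were run without the mouse as a block, and dropping the block alone left 1806 genes. Without the members of mouse 1, 3 genes passed, and without those of mouse 2, 3 genes passed. They were Gm26917, Gm42418 and Lars2 in both cases, and 923 and 1900 genes passed without the annotated cells of mouse 1 and of mouse 2.

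These 3 genes also had the largest rises among those that passed, reached 100 CPM and were higher in both mice. Hbb-bs, with a log2 fold change of 3.86, had no UMI in the members of mouse 1. Gm26917, a long noncoding RNA gene on chromosome 17 (GRCm38, chr17:39843013-39846341, plus strand), had 25255 CPM in the members of mouse 1 and 15267 in those of mouse 2, against 797 and 805 in the annotated cells (log2 fold change 4.27, SE 0.17, adjusted p = 5.97e-10). Gm42418 (chr17:39846958-39848788, plus strand) had 71699 and 59952 CPM, against 6378 and 6320 (3.02, SE 0.14, adjusted p = 4.10e-09). The annotation places a rRNA gene at chr17:39846353-39848827 on the minus strand: Gm42418 and a further gene that rose, AY036118 (chr17:39847113-39848035, minus strand, log2 fold change 2.25), lie 100% within it, and Gm26917 ends 12 bases before it.

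How reads were assigned among overlapping genes at this locus is not given in the sources used here, so UMIs of the 3 genes and of rRNA cannot be told apart and the single values are uncertain. Lars2, the nuclear gene of the mitochondrial leucyl-tRNA synthetase (chr9:123366927-123462666, plus strand), had 7667 and 6660 CPM, against 272 and 346 (log2 fold change 4.19, SE 0.15, adjusted p = 1.62e-10). Its level also moved along the mitochondrial share, from 1205 and 1583 CPM in annotated cells of 10% to 20% to 21780 and 15330 in members of 70% to 80% and 6354 and 6991 at 95% to 100%. Whether its UMIs come from its own messenger RNA or from rRNA was not tested, so its value is uncertain as well. All 4 genes were higher in the members in both mice, which the rule that named them required.

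Among the other genes with the largest rises were Paxbp1, a nuclear protein that binds PAX transcription factors, with 259 and 204 CPM against 34.5 and 38.0, Rasd1, a small G protein induced by glucocorticoids, with 104 and 106 CPM against 10.4 and 16.9, and Hexim1, an inhibitor of transcription elongation, with 164 and 137 CPM against 23.6 and 30.1. Kit, the receptor of stem cell factor and a luminal progenitor marker, had 178 and 313 CPM against 41.8 and 80.5 (log2 fold change 1.67, adjusted p = 1.16e-07). AC149090.1, Gm47283, Arrdc3 and Tcirg1 completed the list, with log2 fold changes of 1.72 to 2.33. Against the 25% of annotated cells with the fewest UMIs (the shallowest 25%), Rasd1 and Hexim1 were no longer higher (log2 fold changes -0.039 and -0.23).

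Nuclear-retained RNAs rose as far as they were called. Malat1 had 61541 and 78659 CPM in the members, against 15032 and 25191 in the annotated cells (log2 fold change 1.49, SE 0.14, adjusted p = 1.21e-06). Firre, which anchors chromatin in the nucleus, had 46.7 and 74.4 CPM against 7.45 and 12.5, and Tug1 98.6 and 83.6 against 48.2 and 41.4. With Gm42418 these were 4 of the 11 tested members of the list, and 7 did not pass. The speckle RNA Neat1 was among them at 3767 and 5077 CPM against 2552 and 3285 (log2 fold change 0.25, adjusted p = 0.0903), and so was the X inactivation RNA Xist at 1192 and 3769 against 826 and 2566 (0.19, adjusted p = 0.172). The median of the list was 0.67 on the log2 scale, against -0.02 over all genes tested, and with total scaling 8 of 11 passed as higher, beside 27.8% of all genes.

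Most listed messenger RNAs of nuclear speckle, splicing and chromatin proteins rose too. Of 18 tested, 15 rose and 1, the RNA helicase gene Ddx5, fell. Pnisr, an SR-rich splicing factor, had 232 and 253 CPM against 65.9 and 83.3 (log2 fold change 1.36), Son, a scaffold of nuclear speckles, 1153 and 954 against 340.04 and 378 (1.20), and Srrm2, its partner, 821 and 1112 against 305 and 393 (1.11). The median of the list was 0.64.

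Nearly all listed messenger RNAs of ribosomal and abundant cytosolic proteins fell. Of 80 genes for ribosomal proteins, 79 were lower in the members, with a median log2 fold change of -1.04, and all 23 of the chosen list of ribosomal protein genes fell. Rpl10 had 818 and 814 CPM in the members against 1701 and 1765 (log2 fold change -1.44, SE 0.11, adjusted p = 2.46e-07), and Rplp0, of the ribosomal stalk, 1688 and 1517 against 3084 and 3100.4 (-1.30). Of 24 abundant cytosolic genes, 23 fell, with Actb, cytoplasmic actin, at 3065 and 2522 CPM against 7551 and 7285 (-1.77). With total scaling, 73 of the 80 ribosomal protein genes and 21 of the 24 cytosolic genes were still lower, beside 12.6% of all genes, and against the shallowest 25% of annotated cells 79 and 21 were, beside 12.3%.

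Most listed nuclear genes for mitochondrial proteins were lower in the members, whereas Lars2, which is on neither list, was higher. All 27 nuclear-encoded respiratory chain genes of the list fell, with a median log2 fold change of -0.88. Cox5a, a subunit of the same enzyme as mt-Co1, had 186 and 187 CPM in the members against 387 and 357 in the annotated cells (log2 fold change -1.34), and Uqcrh, of complex III, 298 and 284 against 607 and 531 (-1.32). Of 19 genes for import, matrix and maintenance, 16 fell and 3 did not pass. Among them were Tomm20, a receptor of the outer membrane import machinery, at 186 and 187 CPM against 472 and 396 (-1.57), and the outer membrane channel Vdac2 at 214 and 136 against 499 and 272 (-1.47).

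Most listed genes for secreted, membrane and secretory pathway proteins fell as well. Of 20 secreted and membrane protein genes, 19 fell, with a median of -0.80, and of 14 chaperone and secretory pathway genes, 9 fell, with a median of -0.64. Sec61b, of the translocation channel, had 218 and 194 CPM against 446 and 437 (log2 fold change -1.45). The chaperone genes Hspa5 and Hsp90b1 did not pass, at 846 and 658 CPM against 692 and 510.4 for Hspa5 (log2 fold change -0.02, SE 0.11, adjusted p = 0.885) and 537 and 483 against 424 and 376 for Hsp90b1 (0.00, SE 0.11, adjusted p = 0.993).

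All 9 pan-luminal genes fell, with a median of -1.06. Krt8 had 2793 and 3131 CPM against 5090.1 and 6917 (log2 fold change -1.35), Krt19, a further luminal keratin, 174 and 239 against 360.4 and 766 (-1.72), and the tight junction gene Cldn4 755 and 764 against 1301 and 1730.0 (-1.33). Of 11 luminal progenitor genes, 8 fell and Kit rose, and of 9 tested mature luminal genes 6 fell. Areg, an epidermal growth factor receptor ligand and a target of the estrogen receptor, had 246 and 83.6 CPM against 684 and 319 (-2.02), but was not lower against the shallowest 25% of annotated cells (0.054). The basal keratin Krt14 had 9 and 26 UMIs in the members, or 5.19 and 18.3 CPM, against 55.6 and 95.3 CPM in the annotated cells (-3.10, adjusted p = 1.36e-07).

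Among the other large falls were the heme oxygenase gene Hmox1 (41.5 and 37.2 CPM against 164 and 98.6), the tubulin gene Tubb2b (61.1 and 41.4 against 182 and 162), the membrane protein gene Tm4sf1 (1521 and 749 against 4162 and 2588) and the cytokine gene Csf3 (316 and 133 against 706 and 497), with log2 fold changes of -1.85 to -2.10. S100a14, S100a10, Basp1, Cda, Pxdc1 and Tubb6 were in the same range, and Smr3a, a salivary protein gene, had 167 UMIs in the members of mouse 1 and 1 in those of mouse 2. Its log2 fold change of -2.05 became 0.27 without the annotated cells of mouse 1.

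Of the stress lists, the group under NRF2, the regulator of antioxidant genes, and the metallothioneins fell, with 10 of 12 lower, Slc7a11 higher and a median of -1.25. Of the heat shock genes, 7 of 10 fell and Hspa1a rose (log2 fold change 0.46), with Hspb1, a small chaperone, at 1524 and 1317 CPM against 3258 and 3011 (log2 fold change -1.49). Among the p53 and apoptosis genes 7 of 14 fell and 7 did not pass, with the cell cycle inhibitor Cdkn1a at 142 and 128 CPM against 378 and 313 (-1.70). Hypoxia and glycolysis genes were split, with 8 of 14 lower and Vegfa, Hk2, Pdk1 and Ankrd37 higher. The genes of the integrated stress and unfolded protein response were split too, with 4 of 12 in each direction, Ppp1r15a, Ddit3, Herpud1 and Slc7a11 being higher. With total scaling 5 hypoxia and 2 stress response genes were lower, beside 12.6% of all genes. In that setting 4 of each list were higher, beside 27.8%. Of 13 S phase genes Gins2, Mcm6 and Pcna were lower with TMM, beside 22.9% of all genes, whereas with total scaling 1 was higher.

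Of 14 mitosis genes 3 rose, beside 17.1% of all genes. They were the motor protein gene Cenpe (30.6 and 62.5 CPM against 5.73 and 12.03), the kinetochore gene Cenpf (50.7 and 71.6 against 8.47 and 19.2) and the proliferation marker Mki67 (122 and 145 against 21.03 and 57.7). Their log2 fold changes were 2.04, 1.87 and 1.57. Cdc20, an activator of the anaphase-promoting complex, fell at 12 and 18 UMIs in the members, and the other 10 did not pass. With total scaling 8 of the 14 rose, beside 27.8% of all genes.

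The immediate early genes, which cells transcribe within minutes of a stimulus or of tissue dissociation, were split. Of 14, 7 were higher and 4 lower in the members. Fos had 848 and 1151 CPM against 255 and 483 (log2 fold change 1.14, adjusted p = 3.20e-06) and Jun 2452 and 1863 against 854 and 959 (0.89), whereas Ier3 had 927 and 623 against 1687 and 1340.3 (-1.33) and Klf6 753 and 609 against 1150 and 1333 (-1.22). This call depended on the comparison: against the shallowest 25% of annotated cells, 13 of 14 were lower in the members, and Fos was lower as well (log2 fold change -0.89, adjusted p = 2.75e-05).

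**Figure D3:**
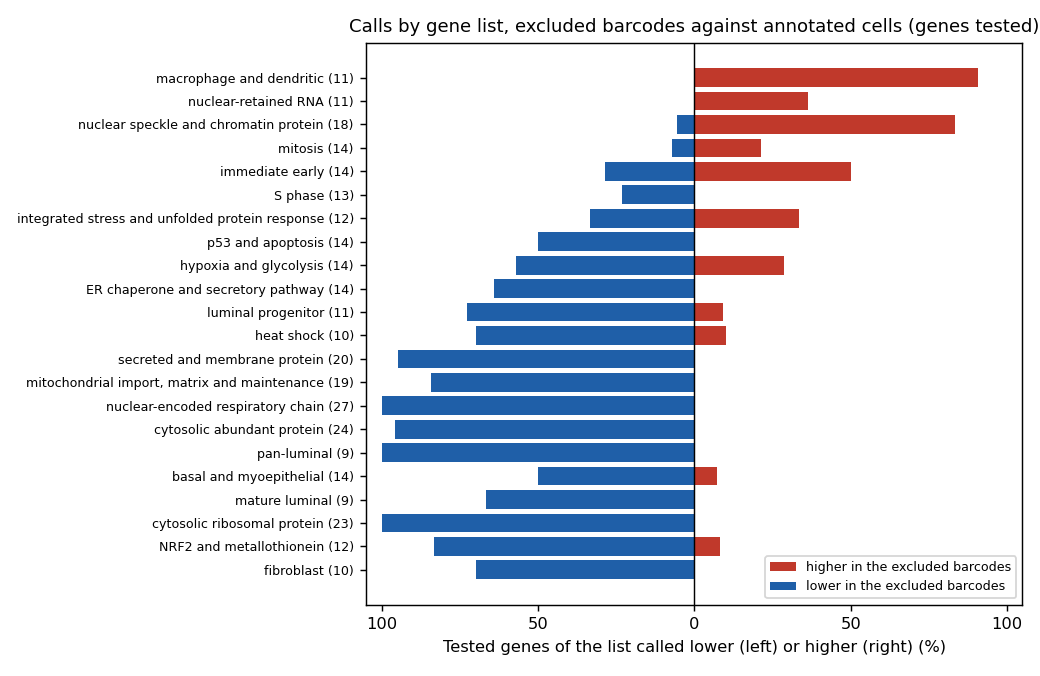
Share of the tested genes of each list (x axis, percent) that were called higher or lower in the members than in the annotated cells, for lists with at least 9 tested genes. The same shares over all 14733 genes tested, 17.1% higher and 22.9% lower, are not drawn. Lists of ribosomal, abundant cytosolic and nuclear-encoded mitochondrial proteins lie almost wholly on the lower side, with 27 of 27 respiratory chain genes. The nuclear speckle list lies on the higher side, with 15 of 18.

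Apart from the lists, 13.3% of the genes that rose and 1.07% of those that fell were annotated as noncoding, against 10.3% of those tested. The median span of a gene on the genome was 27.5 kb among those that rose, 15.4 kb among those that fell and 21.4 kb among those tested. These are descriptions and were not tested.

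For leukocyte genes, the authors had removed clusters of lymphoid and myeloid cells from the annotated cells, and that removal and a difference in the members cannot be told apart. Macrophage and dendritic genes summed to 96.9 and 250.0 CPM in the members and to 29.2 and 36.9 in the annotated cells, with 10 of 11 tested genes higher, and 11 and 10 members held UMIs of at least 3 of these genes. When all barcodes at or under 20% took the place of the annotated cells, Ptprc, C1qa, Fcer1g and Tyrobp were lower in the members (log2 fold changes -2.11 to -0.96). Of 10 fibroblast genes 7 were lower in the members. Without barcodes that held UMIs of at least 3 genes of another cell type's list, 1 of 8 was, beside 23.4% of all genes, and Col1a2 (log2 fold change 0.83) and Col3a1 (0.27) changed sign. In the same comparison 9 of 10 macrophage and dendritic genes were higher, beside 17.5% of all genes. Hemoglobin rested on 1 droplet: of 566 Hbb-bs UMIs in the members of mouse 2, 561 came from 1 barcode, and mouse 1 had 0.

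The pooled sums weight the members unequally. Members at or under 50% held 81.4% and 85.0% of the members' nonmitochondrial UMIs, and members over 80%, although more than 1 in 2 of the barcodes, held 5.93% and 5.70%. The values above therefore describe mainly the barcodes near the threshold. In an alternative chosen after seeing the data, members over 80% were compared with the annotated cells alone, and 499 of 13614 genes passed, 0.433% higher and 3.23% lower, with a median log2 fold change of -0.49 over all genes tested. In that comparison 6 of 80 ribosomal protein genes were lower, with a median log2 fold change of -0.33, and 7 of 27 respiratory chain genes, with a median of -0.27, whereas 8 of 9 pan-luminal genes were lower, with a median of -1.11. Malat1 was not higher (-0.14), and 8 of 14 immediate early genes were lower.

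Along the mitochondrial share, levels did not move steadily but turned. Malat1 in mouse 1 stood at 24035 CPM in annotated cells of 10% to 20%, rose to 79818 in members of 30% to 50% and came down to 10473 at 95% to 100%. In mouse 2 the same values were 42133, 93209 and 14155. The ribosomal protein list took the opposite course, from 69459 in annotated cells of 10% to 20% to 25865 in members of 50% to 70% and 63452 at 90% to 95% in mouse 1, and from 58398 to 30600 and 59672 in mouse 2. The highest Malat1 and the lowest ribosomal protein levels thus lay between 30% and 70%, and at 95% to 100% the ribosomal protein list was at 62172 and 51269, against 72157 and 69258 in all annotated cells.

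The respiratory chain list turned in the same interval as the ribosomal proteins. It was 15399 CPM in annotated cells of 10% to 20%, 5798 in members of 50% to 70% and 13644 at 90% to 95% in mouse 1, and 15993, 7681 and 15914 in mouse 2. The nuclear speckle list went from 5557 to 11150 and 6978 and from 5885 to 11671 and 6789 in the same bins. The pan-luminal list was lowest at 70% to 80%, where it was 6885 in mouse 1 and 10379 in mouse 2, against 19905 and 19217 in annotated cells of 10% to 20%. At 95% to 100% it was 9139 and 16054. With the genes at the rRNA locus left out of the totals, its lowest value was 9384 at 70% to 80% in mouse 1. In mouse 2 it was then lowest at 30% to 50%, at 12854. The last bin was at 11621 in mouse 1, against 20315 in annotated cells of 10% to 20%, and at 19758 in mouse 2, against 19611.

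Among the genes at the rRNA locus, the sum and Gm42418 stayed high where Malat1 came down, and Gm26917 came down. Their sum was 20162 CPM in annotated cells of 10% to 20%, 57378 in members of 20% to 30%, 266356 at 70% to 80%, 190013 at 90% to 95% and 213540 at 95% to 100% in mouse 1. In mouse 2 it was 20106, 50102, 212871, 163755 and 187468, with a lower value of 144714 at 80% to 90%. Gm42418 made up most of the sum, with 201067 and 174262 CPM at 95% to 100%. Gm26917 instead went from 55191 at 50% to 70% to 6354 at 95% to 100% in mouse 1, and from 39809 at 70% to 80% to 5697 in mouse 2. About 1 in 5 nonmitochondrial UMIs of the members with the highest shares thus came from this locus. With its genes left out of the totals, the ribosomal protein list still had its lowest level at 50% to 70%, at 31942 and 36287 CPM, and reached 78337 and 71357 at 90% to 95%.

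**Figure D4:**
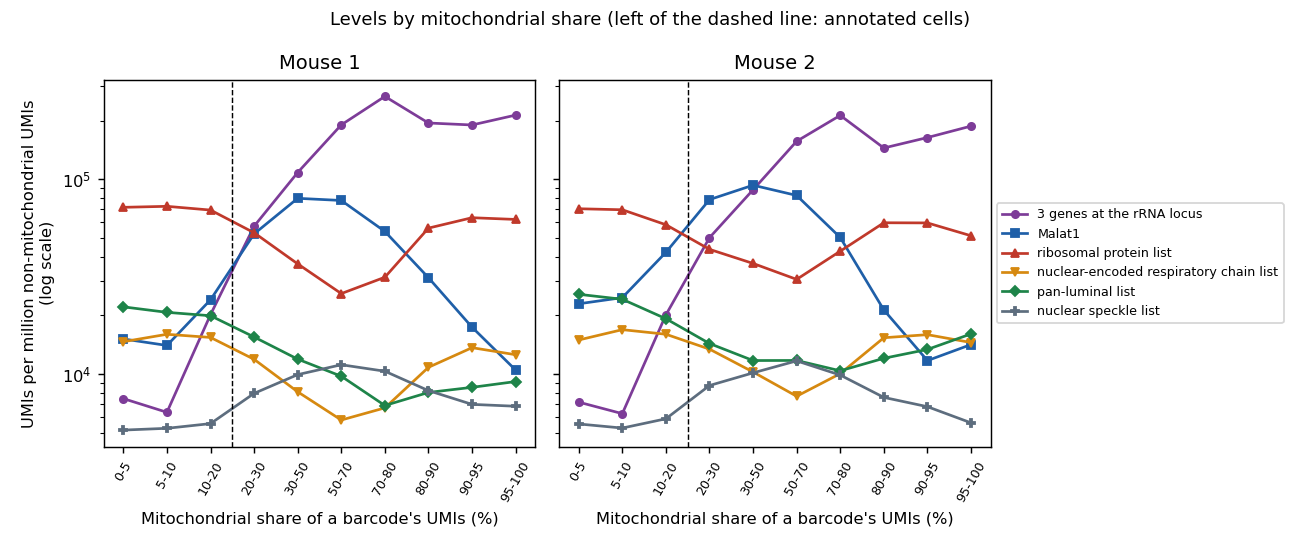
Levels per 1000000 nonmitochondrial UMIs (y axis, log scale) of the 3 genes at the rRNA locus, Malat1 and gene lists, by mitochondrial share (x axis, percent), 1 panel per mouse, with the annotated cells left of the dashed line. Malat1 is highest at 30% to 50% (79818 and 93209), the ribosomal protein list lowest at 50% to 70% (25865 and 30600), and the rRNA locus highest at 70% to 80% (266356 and 212871).

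The distance of each bin from the annotated cells was taken as the percent of nonmitochondrial UMIs that would have to move to another gene to give the profile of all annotated cells of that mouse, after thinning each sum to 8000 UMIs. Annotated cells thinned in this way were 30.01% and 29.4% from themselves, which is the counting error of their own profile at this depth. The counting error of the members' bins can differ from it and was not computed. Members at 20% to 30% were at 38.8% and 41.9%, those at 50% to 70% at 58.6% and 53.03%, and those at 95% to 100% at 42.0% and 41.9%. Without the rRNA locus, the same bins were at 37.4% and 40.7%, 52.6% and 48.3%, and 34.2% and 33.4%, against 29.96% and 30.3% for the annotated cells. The bins in the middle of the range were the farthest from the annotated cells in both mice.

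**Figure D5:**
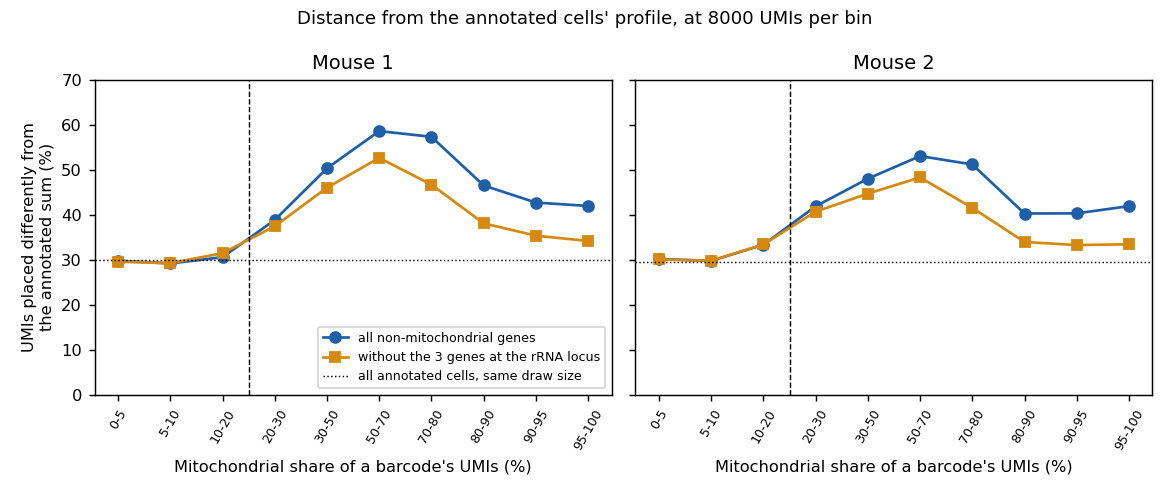
Percent of nonmitochondrial UMIs placed on other genes than in all annotated cells of the same mouse, at 8000 UMIs a bin (y axis), by mitochondrial share (x axis, percent), with and without the genes at the rRNA locus, 1 panel per mouse. The distance is largest at 50% to 70%, with 58.6% and 53.03%, and without the locus it falls to 34.2% and 33.4% in the last bin.

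How the members differed among themselves was then tested between those above and those at or below their own mouse's median share of 86.8% and 83.7%. The sums above the median held 74418 and 71265 nonmitochondrial UMIs and those below it 1659993 and 1352877. Of 7932 genes tested, 205 (2.58%) passed in edgeR, 121 higher above the median share (1.53%) and 84 lower (1.06%). Both sets of sums are part of the members' sums in the comparison with annotated cells, so the comparisons share these UMIs.

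Of 80 ribosomal protein genes, 44 were higher above the median share, with a median log2 fold change of 0.63, against -0.25 over all genes tested. Rps2 had 2016 and 2610.0 CPM above and 1170 and 1274 below (log2 fold change 1.03, SE 0.15, adjusted p = 7.70e-04) and Rpl10 1599 and 1347 against 783 and 786 (1.03, SE 0.16, adjusted p = 1.63e-03). Of 24 cytosolic genes 10 were higher, among them the ferritin genes Fth1, with 7162 and 6006 CPM against 3707 and 2610.0 (1.20), and Ftl1 (1.14), and the actin-binding thymosin gene Tmsb4x (1.07). Of 27 respiratory chain genes 4 were higher, with Cox5a at 1.11 and Cox4i1 at 0.81.

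Of 8 nuclear-retained RNAs tested, 4 were lower above the median share (Malat1, Neat1, Xist and Kcnq1ot1), 1 was higher (Gm42418) and 3 did not pass. Malat1 had 15762 and 15898 CPM above and 63593 and 81965 below (log2 fold change -2.07, SE 0.14, adjusted p = 2.37e-07). Xist, which had 21 and 59 UMIs above the median, was lower by a log2 fold change of -2.09, and Kcnq1ot1 was lower at 6 and 5 UMIs above the median. Gm42418 had 185345 and 149484 CPM above and 66604 and 55236 below (1.58, SE 0.14, adjusted p = 3.29e-06), but -0.12 after thinning each barcode to 200 nonmitochondrial UMIs. Its neighbour Gm26917 was lower, with 11825 and 5571 CPM against 25857 and 15778 (-1.19, SE 0.14, adjusted p = 1.03e-04). Of 18 nuclear speckle genes 3 were lower, Son among them (-1.44), and 1, the chromatin regulator gene Ankrd11, was higher (1.00).

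All 8 immediate early genes that passed were lower above the median share, of 14 tested, with a median of -1.27. Jun had 806 and 575 CPM above and 2525 and 1931 below (log2 fold change -1.57, SE 0.17, adjusted p = 5.52e-05), Btg2, an inhibitor of proliferation, 121 and 267 against 949 and 828 (-2.08) and Fos 255 and 561 against 874 and 1182 (-1.24). Of the endoplasmic reticulum chaperones Hspa5 was lower (-1.15), of the heat shock genes Hspa1a (-1.32), and of the luminal genes Epcam, the epithelial adhesion molecule, with 2231 and 2371 CPM against 4318 and 3445 (-0.63). Krt8 did not pass, at 2298 and 3662 CPM above and 2816 and 3103 below (0.10, SE 0.15, adjusted p = 0.792).

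The genes with the largest fold changes between the parts of the members rested on few UMIs. Of the 12 largest falls, 8 had 3 UMIs or fewer above the median share, and all 12 had 20 or fewer, so no fold is given for them. These genes were 4632427E13Rik, Rb1cc1, Arid5a, Dmxl1, Qk, Dhx36, Tsix, Sbno1, Smg6, Luzp1, Kcnk5 and Kcnq1ot1, of which the last had the 6 and 5 UMIs given above. Among the rises, Cd74 and H2-Ab1, of antigen presentation, had 16 and 30 and 7 and 12 UMIs above the median share and 19 and 78 and 13 and 25 below, and the lipoprotein gene Apoe had 19 and 23 and 95 and 117. Gabarap, of autophagosome formation, had 60 and 45 UMIs above, or 806 and 631 CPM against 309 and 283 (1.40).

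The comparison within the members was less stable than that with the annotated cells. With total scaling 31 genes passed, 2 of the ribosomal protein genes among them as higher, beside 0.139% of all genes, and the median of all genes shifted by -0.14. After thinning to 200 nonmitochondrial UMIs, only 39 and 17 barcodes above the median share were left, and 1 ribosomal protein gene of 79 passed, as lower, beside 1.25% of all genes, with a median of -0.38, against -0.63 over all genes tested. Gm42418, Ftl1 (-0.11), Cox4i1 (-0.55) and Gabarap (-0.32) then changed sign as well.

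For single barcodes, the profile of each member with at least 200 nonmitochondrial UMIs, thinned to 200, was set against the summed profiles of the 18 annotated clusters in the other mouse. This used 1052 and 881 members and left out 1242 and 1037. All 647 and 633 members at or under 50% were used, but only 93 of 1293 and 29 of 1015 over 80%. Of the members used, 69.6% in mouse 1 and 68.3% in mouse 2 matched cluster 1 best, and 9.32% and 13.2% matched cluster 11. Annotated cells thinned in the same way found their own cluster in 63.1% and 65.5% of cases, and 8.51% and 9.79% of them matched cluster 1.

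Cluster 1 was itself made of shallow cells, with a median of 1258 and 1009 UMIs and a mitochondrial share of 9.38% and 7.56%. Its nuclear-retained RNAs summed to 170709 and 166627 CPM, against 138852 and 148006 in the members and 25193 and 37717 in all annotated cells. These sums include Gm42418, at 71699 and 59952 CPM in the members, whose UMIs cannot be told apart from those of rRNA. The immediate early genes of cluster 1 summed to 21615 and 23675 CPM, against 10198 and 9529 in the members and 7503 and 8485 in all annotated cells. At 200 UMIs a barcode, members held a median of 141 and 146 genes, cells of cluster 1 134 and 142, and all annotated cells 165 and 164. Most members that could be matched, few of which were over 80%, thus had the shallow cells of cluster 1 as their best match.

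The libraries shared 20 cell barcode sequences. Of the members, 6 in mouse 1 and 5 in mouse 2 had a sequence that also occurred in the other library, and 1 sequence was a member in both.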

How the data were processed

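The deposited matrices, made by the authors with Cell Ranger (6.0.1 in the submitters' processing notes, which also name Seurat 4.0.3 and the build mm10), hold raw UMI counts of 32285 genes for the barcodes called as cells. For each cell they kept, a deposited table of the authors lists the cluster and the mitochondrial fraction. That fraction differed from the share recomputed here by at most 0.159 and 0.674 percentage points. Per the study's methods, the authors removed scDblFinder doublets, barcodes of few UMIs or genes, outliers in mitochondrial share, and lymphoid and myeloid clusters. No doublet caller was run here, and the members may hold doublets.

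Barcodes were joined by mouse and sequence, mt- genes were removed, and UMIs were summed per mouse. edgeR 4.0.16 (limma 3.58.1, R 4.3.3) was run with filterByExpr, TMM and the mouse as a block, at an adjusted p of 0.05. DESeq2 1.42.0 was an alternative. The pairing comes from the animal and library. Across genes, the difference between the mice in one group correlated with that in the other with a Pearson r of 0.472 (members and annotated cells) and 0.189 (members above and below the median share). Each fit had 1 residual degree of freedom, from 2 mice. The dispersion estimates had prior degrees of freedom of 14.3 (members and annotated cells) and 16.9 (within the members), drawn from all genes. The p-values thus lean on spread shared across genes, beside that between 2 mice. Single barcodes and bins were handled with numpy 2.4.6, scipy 1.17.1 and pandas 2.3.3, with random seed 1 for thinning. Positions are from GENCODE vM21 on GRCm38 and were found for 32222 genes. The edgeR fits were tested on simulated data. Intervals were not computed, and UMI sums carry counting error as well as the spread between mice.

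The members and gene lists were chosen with earlier results of these data known. Genes were named by size of change: in each test the 12 that rose and the 12 that fell most, if they passed the threshold, went one way in both mice and reached 100 CPM on their higher side, and from every list the 4 largest changes that passed, or the 2 genes with most UMIs where none did. Krt18, Hspa5, Hsp90b1, Vegfa, Ppp1r15a, Ddit3, Hspa1a against annotated cells, Neat1, Xist, Gm26917 above and below the median share, Cd74, S100a8, Hbb-bs, Postn, Dcn and Notch3 in the marker check, Jun, Fos above and below the median share, Krt8 above and below it, and Ddx5 were named after their values were seen. In 29 lists, 1 symbol was absent from the matrices. Alternatives were DESeq2, other scalings, filters, comparators, thinning, and leaving out each sum.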

Additional observations from a re-analysis of the deposited data

How the results depend on the processing

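Between members and annotated cells, the count of 5889 calls stayed within 1.5 times with DESeq2 (3963, with 1536 higher), total scaling (4103 higher and 1857 lower), no filter, at least 1000 UMIs, all barcodes at or under 20%, members at or under 80%, and without barcodes of other cell types. It fell to 2484 (1090 higher, 1394 lower) against a fold of 1.5, 2460 (826, 1634) for members over 50%, 2174 (897, 1277) against the shallowest 25% of annotated cells, 2028 (974, 1054) after thinning, and 499 (59, 440) for members over 80%. Alternatives with a limit at 80% were chosen after seeing the data. Leaving out 1 sum gave 3 to 1900 calls (3 to 848 higher, 0 to 1052 lower), the lone sum being assumed to vary like the others. The fits that left out 1 sum, here and within the members, had no replicate block either. Without the replicate block alone, which uses the pairing by animal, 1806 genes passed (629 higher, 1177 lower). Within the members, the count of 205 became 143 in DESeq2 (36 lower), 145 without barcodes of other cell types (47 lower), 20 (9 higher, 11 lower) against a fold of 1.5, 353 (251 lower) without a filter, 420 (218, 202) for over 80% against up to 50%, 24 (5, 19) after thinning and 31 (11, 20) with total scaling. Without the block 0 passed in edgeR (0 higher, 0 lower), with 1145 genes at an unadjusted p under 0.05, and leaving out 1 sum gave 0 to 98 calls (0 to 18 higher, 0 to 80 lower).

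Named genes that changed sign are given as log2 fold changes. Against the shallowest 25% these were Rasd1 (-0.039), Hexim1 (-0.23), Areg (0.054), Fos (-0.89), Fosb (-0.74), Herpud1 (-0.28), Ankrd37 (-0.34), Mcm6 (0.18) and G0s2 (-0.28). For members over 80% they were Kit (-0.26), Malat1 (-0.14), Tug1 (-0.16), Nktr (-0.14), Fos (-0.012), Fosb (-1.03), Herpud1 (-0.97), Gins2 (0.44), Mcm6 (0.041), Pgr (0.26), Krt5 (0.35) and Lum (0.44), and for members over 50% Herpud1 (-0.81). Without barcodes of other cell types they were Col1a2 (0.83), Col3a1 (0.27) and Fabp4 (-0.37). Against all barcodes at or under 20% they were Ptprc (-2.11), C1qa (-1.13), Fcer1g (-0.96), Tyrobp (-1.03), S100a9 (-0.37), Hba-a1 (-0.081) and Hbb-bt (-0.60). Leaving out 1 sum gave -8.06 to 0.27 for Smr3a, -2.80 to 7.08 for Rgs5, -2.63 to 4.38 for Hba-a2 and -0.83 to 3.21 for Fabp4. Within the members, thinning turned Gm42418 (-0.12), Gabarap (-0.32), Rpl7 (-0.14), Ftl1 (-0.11), Cox4i1 (-0.55), Mt1 (-0.88) and Txn1 (-0.44). The cause was not tested. Depth limits the members above the median share most, where 74418 and 71265 UMIs were left.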
